A study of Homo sapiens with 6 samples.

Results

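Expression of 9 genes of the complement system was followed in MDA-MB-231 cells, and the array read them with 37 of its 49293 probe sets. Members were all probe sets annotated to exactly 1 of C3, CFB, CFI, C1S, C1R, CD46, CD55, CD59 and SERPING1, which are 9 of the 18155 genes with a probe set of their own. CD46 had 12 probe sets, CD55 7, CD59 5, CFB 4, C1R 3, CFI and SERPING1 2 each, and C3 and C1S 1 each. MDA-MB-231 is a metastatic breast cancer line without hormone receptors. It had been infected with a lentivirus that carries the full CTCF coding sequence (CTCF-OE, 3 samples) or with a negative control lentivirus (NC, 3 samples), and both are stably infected cells grown in the same serum-containing medium. Whether either line is 1 clone, and whether the 3 samples of a line were separate cultures, is not given in the sources used here. The p-values therefore describe the variation among 6 arrays, and that variation may be technical.

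Complement is a cascade of plasma proteins that marks cells and particles for removal and can lyse them. C1r and C1s are the proteases that start the classical pathway and are blocked by C1 inhibitor, the product of SERPING1. Factor B (CFB) is the protease of the alternative pathway, and all pathways meet at C3, whose fragments coat the target. Factor I (CFI) cuts those fragments, with CD46 as a cofactor on the cell membrane. CD55 takes apart the enzymes that cleave C3, and CD59 stops the lytic pore at the cell's own surface. The liver makes most of the circulating proteins, but epithelial and tumor cells also make C3, factor B, C1r and C1s, whose genes respond to interferons and inflammatory cytokines.

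In short, CFB fell in the arrays labelled CTCF-OE and the other 8 genes did not pass both thresholds. CD46 read higher, and CD55 lower, at each of their probe sets by small amounts. Before the values, upstream sequences of CFB and C1R are shown, CFB because it carries the only called change. For C1R the first of its 2 windows is shown because it holds a consensus of CTCF itself, which the other window does not. Each is a RefSeq window on GRCh38.p14 from 250 bases before a listed start of the gene to 50 bases after it. Both are written 5′ to 3′ on the strand of the gene. Capitals mark the matches to 4 motifs searched on both strands.
CFB, chr6:31945845-31946144, plus strand: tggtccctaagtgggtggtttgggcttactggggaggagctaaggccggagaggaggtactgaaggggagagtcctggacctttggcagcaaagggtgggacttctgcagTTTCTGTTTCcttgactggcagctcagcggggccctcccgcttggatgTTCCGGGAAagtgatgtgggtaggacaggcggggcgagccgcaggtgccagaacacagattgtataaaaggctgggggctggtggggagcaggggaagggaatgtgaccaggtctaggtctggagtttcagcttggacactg
C1R, chr12:7092396-7092695, minus strand: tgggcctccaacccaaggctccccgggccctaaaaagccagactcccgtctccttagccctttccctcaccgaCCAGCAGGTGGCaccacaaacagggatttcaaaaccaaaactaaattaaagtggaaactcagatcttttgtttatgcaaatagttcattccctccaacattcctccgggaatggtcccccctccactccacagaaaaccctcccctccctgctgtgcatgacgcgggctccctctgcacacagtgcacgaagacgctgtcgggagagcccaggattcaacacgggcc

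In the CFB window the first run of capitals is GAAA, any 2 bases and GAAA again, read on the opposite strand, a pattern of interferon-stimulated response elements, from base -140 to base -131 relative to the start. The second run, from base -92 to base -84, is TTCNNNGAA, the pattern bound by STAT factors. The capitals in the C1R window, from base -177 to base -166, match the 12-base core consensus of CTCF. Of 35116 windows of the same length in the table, 3.57% held the GAAA pair, 7.66% held TTCNNNGAA, 5.91% held the kappaB consensus and 0.47% held the CTCF core consensus. The motifs do not overlap each other in these windows. Over the 11 windows of the 6 members that the table lists (CFB, CFI, C1R, CD46, CD55 and CD59), TTCNNNGAA was also found in 2 overlapping windows of CD59 and in the second window of C1R, and the kappaB consensus in none. The windows of C3, C1S and SERPING1 were not used here. A match describes letters and not binding.

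The lentiviral gene was read as a check of the labels. The only CTCF probe set read 398.5, 387.5 and 399 in the arrays labelled CTCF-OE, against 463, 442 and 489 in the NC arrays. It therefore did not read higher under the label of overexpression (log2 fold change -0.23, standard error of the fit, written SE, 0.047, limma adjusted p = 0.0639). Where this probe set lies in the transcript is not given in the sources used here, and a probe set outside the coding sequence would not read the transgene. All directions are those of the labels. Markers of mesenchymal-like breast cancer cells (VIM, CD44, CAV1, MSN and AXL) read 3364 to 14200 in the 6 arrays. The luminal markers PGR and CDH1 stayed between 7.67 and 15.4 and ESR1 between 52.4 and 61.2, whereas GATA3 (327 to 359) and EPCAM (414 to 504) were brighter. Of the leukocyte markers PTPRC stayed at or under 7.61 and CD14 read 103 to 113, and of the hepatocyte markers ALB stayed at or under 15.3 and APOA1 read 38.6 to 42.9. PECAM1 of endothelium read 107 to 118 and COL1A1 of fibroblasts 33.7 to 39.0. The 6 array medians lay between 83.3 and 84.5.

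Values are linear probe set intensities, and each difference is the log2 fold change of CTCF-OE over NC on log2(intensity + 1), which understates the change of dim probe sets. A probe set was called at a limma p under 0.05, adjusted by Benjamini-Hochberg over all 49293 probe sets, together with a fold change above 1.3 (0.38 on the log2 scale). Of the 37 member probe sets 2 were called lower (5.41%) and 0 higher, where 0.446% of all probe sets were called lower, 0.191% higher and 0.637% in either direction. Both of the called ones belong to CFB. At an unadjusted p under 0.05, 18 of the 37 passed in either direction, where 17% of all probe sets did. Of these 18, 9 were lower and 9 higher. The methods' t-test also called 0 higher. Without the fold threshold 3 were lower, where 1.27% of all probe sets were, and 1 was higher, where 0.803% were. The values of the groups did not overlap in 10 lower and 10 higher member probe sets (27% each), against 12.8% and 11.6% of all probe sets. Values below 0 were found for 19 members and above 0 for 18, where 49.9% of all probe sets were below 0 and 50.1% above. The median log2 fold change was -0.03 over the 37 members and 0.0003 over all probe sets. Counted by the brightest probe set of each gene, 1 of 9 was called lower, where 0.468% of all genes were, and 0 were called higher, where 0.0771% were. These probe sets are not independent, since several read the same transcript.

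**Figure D1:**
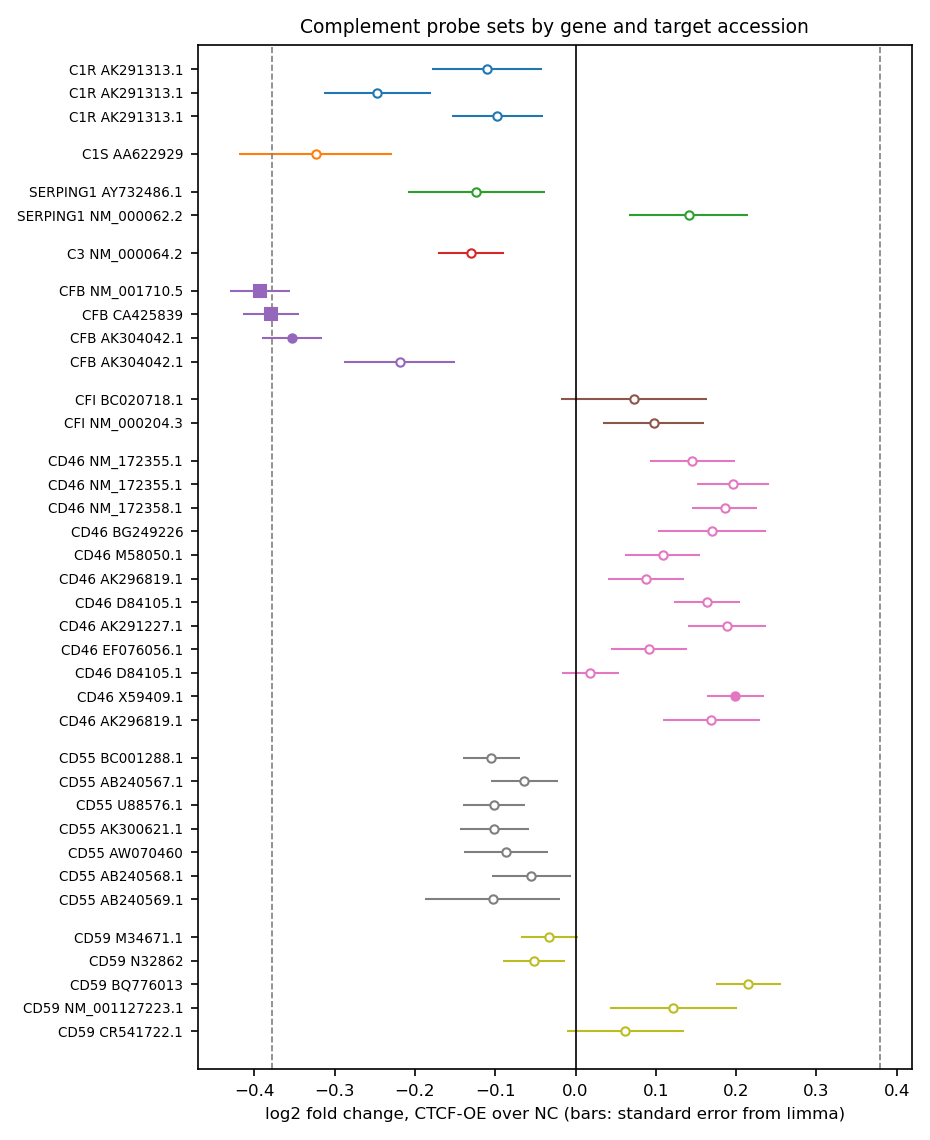
Log2 fold change of CTCF-OE over NC (horizontal axis) for the 37 probe sets, 1 row each, grouped by gene and named by the GenBank entry they were designed on, with bars for the standard error from limma. Filled symbols have an adjusted p under 0.05, squares are called, and dashed lines mark a 1.3-fold change. The 4 CFB rows lie between -0.39 and -0.22, all 12 CD46 rows are above 0 and all 7 CD55 rows are below it.

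CFB, the protease subunit of the alternative pathway C3 convertase, was lower at each of its 4 probe sets. Its brightest probe set read 912, 882 and 919 in the arrays labelled CTCF-OE, against 1176, 1179 and 1208 in the NC arrays. The highest CTCF-OE value was thus below the lowest NC value. The means were 904 ± 19.6 in the CTCF-OE arrays and 1188 ± 17.8 in the NC arrays (SD, n = 3 each). The log2 fold change of CFB was -0.39 (SE 0.037, 95% interval -0.48 to -0.31, limma adjusted p = 0.00664), or 0.762-fold. The array also carries 6 control probe sets for ribosomal RNA, and all 6 read lower in the CTCF-OE arrays, with log2 fold changes of -0.38 to -0.03. The lowest of these, at the 5′ end of 28S ribosomal RNA, averaged 4371 in the CTCF-OE arrays and 5700 in the NC arrays. Its log2 fold change of -0.38 was close to the -0.39 of CFB, and the next lowest control had -0.22. The part of such a shift in the CFB result was not tested. In RNA from whole cultures, less CFB RNA in each cell and fewer cells with CFB RNA cannot be told apart.

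The other CFB probe sets ran the same way. The second brightest read 644, 629 and 636 in the CTCF-OE arrays, against 819.6, 836.5 and 827 in the NC arrays, a log2 fold change of -0.38 (SE 0.035, limma adjusted p = 0.00599). This is just past the fold threshold. The third read 376, 382 and 379.6 in the CTCF-OE arrays, against 477, 476.5 and 499.8 in the NC arrays. Its log2 fold change of -0.35 (SE 0.038, limma adjusted p = 0.00986) passed on p but not on fold. The dimmest, designed on the same GenBank entry as the third, read 29.2, 31.4 and 33.5 in the CTCF-OE arrays, against 34.3, 39.6 and 36.1 in the NC arrays, with a log2 fold change of -0.22 (SE 0.069, limma adjusted p = 0.179). No probe set of CFB had overlapping groups. The third no longer passed on p when any 1 of the CTCF-OE arrays was left out (limma adjusted p of 0.0602 to 0.0630). The size of the change lay so close to the threshold that leaving out CTCF-OE replicate 2, the array with the lowest CFB values at the brightest and second brightest probe sets, ended both calls, with log2 fold changes of -0.375 and -0.371 (limma adjusted p = 0.0465 for both).

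C3, the component that all pathways cleave, has 1 probe set. It read 869, 839.8 and 867 in the arrays labelled CTCF-OE, against 905, 948 and 966 in the NC arrays. The groups did not overlap, but the log2 fold change of -0.13 (SE 0.041, 95% interval -0.23 to -0.03) missed the threshold (limma adjusted p = 0.179). With an intensity trend in the prior variance the adjusted p of C3 was 0.0249, and without the dimmer 50% of the array it was 0.0480, with the same fold change. It was 0.291 with a replicate block, and 0.176 to 0.402 with 1 array left out (limma adjusted p).

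**Figure D2:**
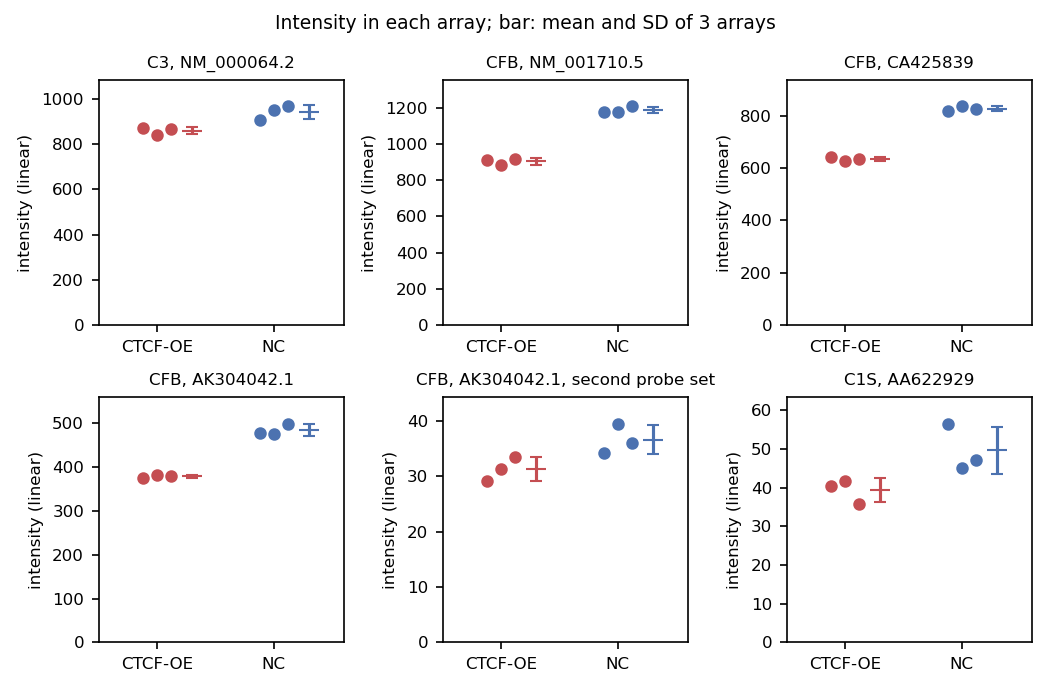
Linear intensity (vertical axis, from 0) of C3, of the 4 CFB probe sets and of C1S in each CTCF-OE array (red, left) and NC array (blue, right), with the mean and SD of 3 arrays beside the points. CTCF-OE and NC points are apart in every panel, by the widest relative margin in the brighter CFB panels, where the brightest reads 904 against 1188 on average.

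The proteases of the classical pathway read lower without passing the thresholds. C1S, which cleaves C4 and C2, read 40.4, 41.8 and 35.8 in the arrays labelled CTCF-OE, against 56.6, 45.2 and 47.1 in the NC arrays. The groups did not overlap, and NC replicate 1 stood above the other arrays. Its log2 fold change was -0.32 (SE 0.095, 95% interval -0.55 to -0.10, limma adjusted p = 0.153). C1R, which activates C1s and lies beside C1S in the genome, read 151, 162.5 and 148 in the CTCF-OE arrays at its brightest probe set, against 172, 176 and 151.0 in the NC arrays. These groups overlapped, with a log2 fold change of -0.11 (SE 0.069, limma adjusted p = 0.472). Single NC arrays moved this value, which was -0.07 without NC replicate 2 and -0.18 without NC replicate 3. Its second probe set read 54.1, 51.2 and 61.0 in the CTCF-OE arrays, against 65.2, 67.9 and 64.3 in the NC arrays (log2 fold change -0.25, SE 0.067, limma adjusted p = 0.128). The third C1R probe set had a log2 fold change of -0.10, which was -0.05 without NC replicate 2. All 3 C1R probe sets were designed on the same GenBank entry.

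Both soluble inhibitors were at the dim end of the array. SERPING1 (C1 inhibitor) read 11.2, 12.3 and 11.4 in the CTCF-OE arrays, against 13.5, 13.9 and 11.0 in the NC arrays at its brighter probe set (log2 fold change -0.12, SE 0.085, limma adjusted p = 0.520). Its other probe set, at 8.40 to 8.85 in the CTCF-OE arrays and 6.82 to 8.34 in the NC arrays, had the opposite sign and groups that did not overlap (0.14, SE 0.074, limma adjusted p = 0.392). CFI read 9.45, 10.2 and 12.5 in the CTCF-OE arrays, against 9.80, 10.1 and 10.4 in the NC arrays at its brighter probe set, with a log2 fold change of 0.07 (SE 0.091). The 4 probe sets of these genes lay between the 5.45th and the 14.0th percentile of the array, and the median of 23 background control probe sets was 8.18. At this brightness no difference of SERPING1 or CFI passed the test.

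CD46, the membrane cofactor for factor I, was brighter in the CTCF-OE arrays than in the NC arrays at each of its 12 probe sets, with log2 fold changes of 0.02 to 0.20 and a median of 0.17. The brightest read 3165, 3304 and 3127 in the CTCF-OE arrays, against 2931, 2711 and 3043 in the NC arrays. The groups were apart there, but the log2 fold change of 0.15 (SE 0.053, 95% interval 0.02 to 0.27) missed the threshold (limma adjusted p = 0.234). The 1 probe set that passed on p, without the fold, read 603, 598 and 613 in the CTCF-OE arrays, against 534, 527 and 518.5 in the NC arrays. Its log2 fold change was 0.20 (SE 0.035, limma adjusted p = 0.0445), or 1.15-fold. In 8 of the 12 the groups did not overlap, where 11.6% of all probe sets were apart and higher.

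CD46 probe sets on the same target did not all read the same change. Of the 2 designed on D84105, one had a log2 fold change of 0.16 and the other 0.02. The probe set with 0.02 read 621, 635 and 615 in the CTCF-OE arrays, against 610.5, 625 and 611 in the NC arrays. Of the 12, 6 share a GenBank entry with another, and a pseudogene copy, CD46P1, lies near the gene, so reads of similar sequence by some probe sets cannot be set apart here. NC replicate 2 had the lowest NC value at 8 of the 12 probe sets. Without NC replicate 2 the median of the 12 was 0.11, and with each of the 6 arrays left out in turn the median ran from 0.11 to 0.19 and 0 of the 12 passed on p. With an intensity trend 6 of the 12 passed on p, where 3.16% of all probe sets then did so as higher.

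CD55, which speeds the decay of C3 convertases, read lower at each of its 7 probe sets, by small amounts. Its brightest read 2130, 2150 and 2069 in the arrays labelled CTCF-OE, against 2273, 2263 and 2292 in the NC arrays. The groups were apart, with a log2 fold change of -0.10 (SE 0.036, 95% interval -0.19 to -0.02, limma adjusted p = 0.206). The 7 log2 fold changes lay between -0.10 and -0.05, and 3 of the 7 had groups that did not overlap, where 12.8% of all probe sets were apart and lower. None of the 7 passed on p in limma. Before adjustment 2 did so, where 17% of all probe sets passed in either direction. With an intensity trend 2 passed on p, where 3.86% of all probe sets then did so as lower. The methods' t-test passed 3 on p without adjustment, where 8.52% of all probe sets passed as lower, and none with adjustment.

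CD59, the inhibitor of the membrane attack complex, differed by probe set. The brightest read 3508, 3603 and 3555 in the arrays labelled CTCF-OE, against 3701, 3611 and 3601 in the NC arrays, with overlapping groups and a log2 fold change of -0.03 (SE 0.035, 95% interval -0.12 to 0.05). The second brightest had -0.05 (SE 0.039). In contrast, the probe set designed on the expressed sequence tag BQ776013 read 769, 793 and 824 in the CTCF-OE arrays, against 693, 688 and 673 in the NC arrays. These groups were apart, with a log2 fold change of 0.22 (SE 0.041, limma adjusted p = 0.0534). The adjusted p at this probe set was 0.00132 with an intensity trend and 0.181 without CTCF-OE replicate 3, which are the ends of its range over the alternatives. Both other CD59 probe sets, which read 18.4 to 74.7, had log2 fold changes of 0.12 and 0.06.

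Within each array, the log2 intensity of CD46 minus that of CD55 at their brightest probe sets was 0.57, 0.62 and 0.60 in the arrays labelled CTCF-OE, against 0.37, 0.26 and 0.41 in the NC arrays. The groups were apart, and the change of this difference was 0.25. Both genes lie on the same arm of chromosome 1, in the cluster of complement regulators. For CD59, the same difference between the BQ776013 probe set and the brightest was -2.19, -2.18 and -2.11 in the CTCF-OE arrays, against -2.42, -2.39 and -2.42 in the NC arrays. The pairs were chosen after the values were seen and carry no test, and only the change of such a difference has a meaning, since levels of different probe sets are not on 1 scale. Added control RNAs, not separated here by the step at which they were added, also differed somewhat between the groups. Their 33 probe sets had log2 fold changes of -0.09 to 0.16, with a median of -0.03. Some changes of CD46, CD55 and CD59 lay in that range. The CD46 median of 0.17 lay above it, the CD55 median of -0.10 below it and the CD59 median of 0.06 within it. The 0.22 of the single CD59 BQ776013 probe set lay above it. The part of such a difference in the changes of these genes was not tested.

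**Figure D3:**
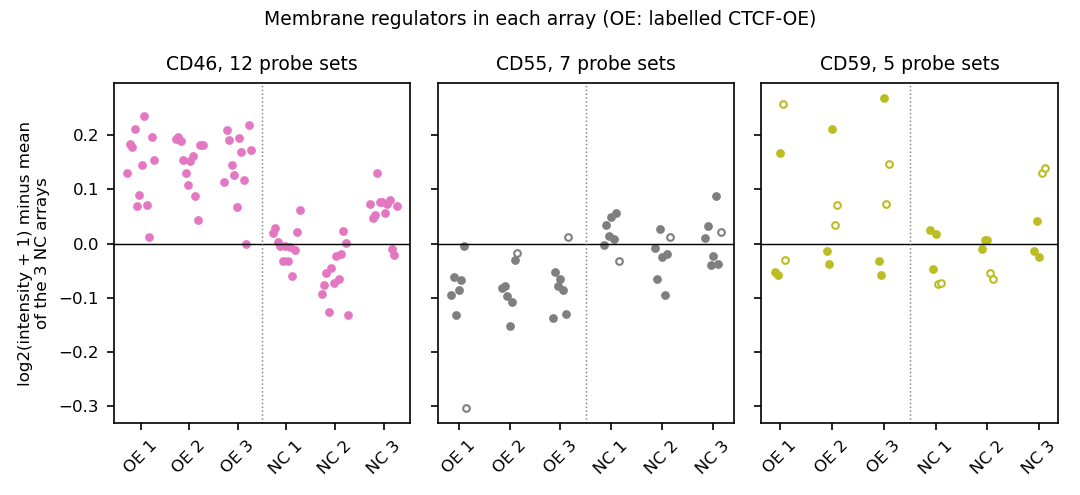
Log2(intensity + 1) minus the mean of the 3 NC arrays (vertical axis) for each probe set of CD46, CD55 and CD59 in the 3 arrays labelled CTCF-OE (OE, left of the dotted line) and the 3 NC arrays (right). Each point is 1 probe set, and open points are probe sets in the dimmer 50% of the array. CD46 points of the CTCF-OE arrays lie mostly above 0.1, CD55 points mostly below 0, and CD59 splits by probe set.

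The rest of the pathway was read from a list of 51 further complement genes, of which 45 had a probe set of their own. The other 6 were not analysed here. None of the 45 was called in either direction by limma or by the methods' t-test, and at an unadjusted p under 0.05 3 of the 45 were lower and 4 higher, where 9.28% of all genes were lower and 7.95% higher. Without the fold threshold 1 was lower, where 1.39% of all genes were, and 0 were higher, where 0.733% were. The median log2 fold change was 0.02 over the list and 0.0002 over all genes, and 15 of the 45 lay in the dimmest 20% of the array.

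The gene that passed on p was C4BPB, the beta chain of C4b-binding protein, a soluble cofactor for factor I. It read 756, 729 and 728 in the arrays labelled CTCF-OE, against 854, 893 and 904.5 in the NC arrays. These groups were well apart, with a log2 fold change of -0.26 (SE 0.038, limma adjusted p = 0.0251). With any 1 of the 6 arrays left out C4BPB no longer passed (limma adjusted p of 0.0571 to 0.124), at log2 fold changes of -0.28 to -0.24. Its partner C4BPA, the alpha chain, was at 6.14 to 7.44 in the CTCF-OE arrays and 6.55 to 7.34 in the NC arrays. ITGB2, the beta chain of the complement receptors on leukocytes, read 51.9, 51.8 and 62.6 in the CTCF-OE arrays, against 67.6, 67.6 and 71.0 in the NC arrays (log2 fold change -0.31, SE 0.077, limma adjusted p = 0.105). CTCF-OE replicate 3 was the highest of the CTCF-OE arrays for ITGB2, and without it the gene was called at -0.40 (limma adjusted p = 0.0357). C2, the classical pathway counterpart of CFB, read 145, 149 and 155 in the CTCF-OE arrays, against 168, 162 and 157 in the NC arrays (log2 fold change -0.11, SE 0.042, limma adjusted p = 0.234). C8B, a part of the lytic pore, ITGAX, an integrin chain of a C3 fragment receptor, and C5, from which the pore starts, had log2 fold changes of 0.10 to 0.14 (adjusted p of 0.242 to 0.276 from limma).

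**Figure D4:**
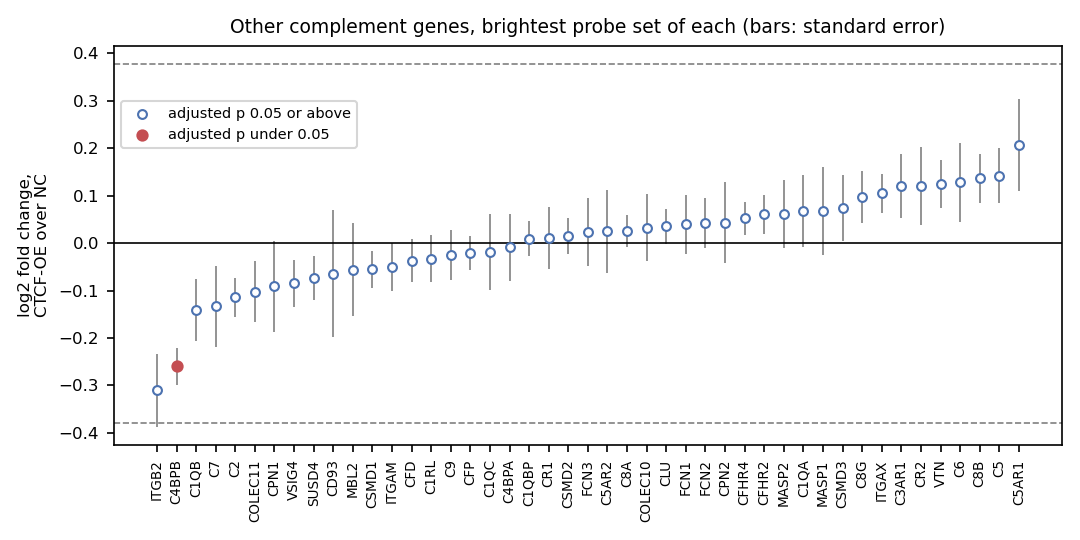
Log2 fold change of CTCF-OE over NC (vertical axis) for the brightest probe set of each of 45 other complement genes, ordered by that value, with bars for the standard error from limma and dashed lines at a 1.3-fold change. C4BPB, the filled point at -0.26, is the only gene with an adjusted p under 0.05, and no gene lies beyond a dashed line.

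Genes that moved most like CFB and C3 were sought by the root mean square difference of log2 values, centred on the NC mean, over the 6 arrays and the brightest probe sets of 18155 genes. Nearest to CFB were BTG1, an antiproliferative factor, OAS2, an oligoadenylate synthetase, FZD4, a Wnt receptor, RSAD2 (viperin) and EPSTI1, an interferon-induced gene. Their differences from CFB were 0.0249 to 0.0307, with log2 fold changes of -0.41 to -0.38, and 168 genes lay within 0.1 of CFB. Nearest to C3 were ZNF772, YDJC, CASC3, ZNF766 and CLTB, at 0.0120 to 0.0157, and none of these 5 passed on p (adjusted p of 0.114 to 0.206 from limma). Within 0.1 of C3 lay 6123 of the 18155 genes, so these 5 do not stand out from many others.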

How the data were processed

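RNA of 6 samples (3 CTCF-OE, 3 NC) was turned into biotin-labelled cRNA, which the authors read on 1-colour PrimeView arrays. The deposited table holds linear intensities per probe set, whose nearly equal array medians point to scaling by the authors beforehand. The software, background correction and normalization are not given in the sources used here. All value columns were used. After 102 control probe sets were left out, log2(intensity + 1) of 49293 probe sets was fitted with limma 3.58.1 in R 4.3.3 (group as the only term, Benjamini-Hochberg adjustment over all probe sets), and again over 18155 genes at the probe set with the highest mean. Annotation gave 1 symbol for 45064 probe sets, several for 1756 and none listed for 2473. Both an adjusted p below 0.05 and more than a 1.3-fold change were required for a call. The methods give the same thresholds and name no adjustment.

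The members, lists and tests were chosen with earlier results of these data known. Named genes are the 9 members, CTCF, the 6 of the other complement genes with the lowest adjusted p, and the 5 genes nearest to CFB and to C3. C4BPA was named after its values were seen. The fit was tested on simulated data. The 3 arrays per group limit the precision. Alternatives changed the added constant, the test, the scaling, filters on dim probe sets, the fold threshold, a replicate block, the arrays left out and the probe set per gene. Promoter windows came from RefSeq (GRCh38.p14). Plots used Python 3.11.15 and matplotlib 3.10.9.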

Additional observations from a re-analysis of the deposited data

How the results depend on the processing

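The count of member probe sets called, 2 as reported, was 1 with log2(intensity + 16), with quantile normalization and with centring on the 75th percentile, since the second CFB probe set then had a fold change under 1.3, and 4 with no fold threshold. It ran from 0 to 2 with 1 array left out, with 0 without CTCF-OE replicate 2 and 1 without CTCF-OE replicate 3 or NC replicate 2. Among the genes at their brightest probe set, CFB alone was called, and 0 to 1 with 1 array left out. With the mean of all probe sets of a gene 0 were called. Of the other complement genes 0 were called, 1 with no fold threshold, and 0 to 1 with 1 array left out (ITGB2, without CTCF-OE replicate 3). Over all probe sets 314 were called, 149 by the methods' t-test with Benjamini-Hochberg adjustment, 1024 with no fold threshold, and 144 to 244 with 1 array left out. The same count was 219 with log2(intensity + 16), 312 with quantile normalization and 306 with centring on the 75th percentile. The log2 fold change of CFI at its brighter probe set, 0.07 as reported, ran from -0.0337 without CTCF-OE replicate 3 to 0.1506 without CTCF-OE replicate 1.

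Whether the replicate numbers pair the arrays is not given in the sources used here. After the group means were removed, arrays of the same number correlated at 0.012, 0.005 and 0.009 over all probe sets. Such values show no broad shared shift and cannot tell whether the arrays were handled in pairs. With the replicate block 73 probe sets were called in all and 0 of the members. CFB at its brightest probe set then had an adjusted p of 0.0583 from limma, and in the fit over genes it was still called, at 0.0499.

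Member probe sets with an adjusted p under 0.05 and any fold, a count chosen after seeing the data, were 3 lower and 1 higher as reported. They were 6 lower and 7 higher with an intensity trend, where 3.86% and 3.16% of all probe sets passed, and 3 lower and 5 higher with log2(intensity + 16), where 2.58% and 1.95% passed. Without the dimmest 50% they were 4 lower and 6 higher, among the 26 members left, where 7.19% and 5.72% of the probe sets left passed. With the replicate block the members that passed were 0 lower and 0 higher, where 0.126% and 0.0223% of all probe sets passed. With any 1 array left out 2 or 3 were lower and 0 higher, where 0.233% to 0.521% and 0.0669% to 0.258% passed. The adjusted p of the CTCF probe set ran from 0.00338 with an intensity trend to 0.208 without CTCF-OE replicate 2, with the same sign in each. CFI and SERPING1 lay near the dim end of the array, with log2 fold changes of -0.12 to 0.14 as reported. Whether differences of that size can be read at that brightness was not tested.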
